A study of Homo sapiens with 4 samples.

Results

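The genes described here build ribosomes. They are 48 nucleolar, ribosomal RNA (rRNA) processing and RNA polymerase I (Pol I) genes, listed by name, out of 37515 genes in the table. The list was chosen with earlier results of these data known. All 48 had a row, and all 48 were among the 14820 genes that passed the filter on low counts. By role they comprised 7 nucleolar regulators, 3 box C/D and 4 box H/ACA proteins, 14 factors of small subunit (40S) assembly, 14 factors of large subunit (60S) assembly, and 6 Pol I subunits and factors.

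Transcripts were counted by RNA-seq in Caco-2, an established human colorectal carcinoma cell line used as a model of the intestinal epithelium. All 4 libraries were labelled wild type, and cells were grown on transwells for 15 days. The 2 IFNγ libraries came from cells given 60 ng/ml IFNγ in the basal compartment for 3 h, and the 2 unstimulated libraries came from cells at 0 h. The labels give no untreated library at 3 h, so IFNγ and the 3 h that passed cannot be told apart. The labels also do not say whether the duplicates were separate cultures, so p-values measure only the spread between these libraries.

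Ribosomes are made in the nucleolus, where Pol I transcribes a long precursor rRNA. Box C/D and box H/ACA small nucleolar ribonucleoproteins modify the precursor, and large sets of assembly factors cleave and fold it into the small and the large subunit. These genes are widely used as a readout of growth signals, and many of them are known targets of the transcription factor MYC.

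The libraries held 7171455 to 10365346 counts, and replicate 1 was the deeper in both conditions. Levels are given as CPM, each count divided by the library's total over the genes that passed the filter and put on a common scale. That total was scaled by the TMM method. As a check of the labels, 8 of 9 known IFNγ targets tested were higher at 3 h, and IRF1 rose from 19.3 and 20.2 to 1201 and 1085 CPM. All 10 epithelial markers were expressed, with VIL1 at 1576 to 1817 CPM. KRT8, KRT18 and CDX2 were higher and KRT19 and SI lower at 3 h, though SI did not pass once a GC and length trend was removed (adjusted p = 0.106) and DESeq2 called 1 of the 10 lower. The 10 immune markers summed to 8.76 to 13.8 CPM, with PTPRC at 0 in 3 of the 4 libraries. The 9 stromal and endothelial markers with a row summed to 105 to 200 CPM, most of it COL1A1, with THY1 at 0 in every library. None of the 3 immune and 5 stromal markers tested was called by edgeR's main comparison or by DESeq2, and 1 had an unadjusted p under 0.05.

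The E-box CACGTG, the sequence that MYC and related proteins bind, was looked for because so many of these genes are known MYC targets. Promoters were RefSeq's, from 250 bases before to 50 after each gene's start on GRCh38.p14. Of the 43 genes with an entry, 18 held the motif (41.9%), against 12.3% of 10505 tested genes and 8.77% of all 27305 genes with a promoter. The motif reads the same on both strands. It stood in 8 of 16 promoters of genes that were higher after IFNγ, 2 of 4 that were lower, and 8 of 23 that were not called. Among all tested genes with a promoter, it was in 14.2% of the 1035 called higher and 13.8% of the 1323 called lower. The 5 genes without an entry were NOLC1, RRS1, NOP58, BOP1 and RRP12.

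The windows below are those of the 10 called genes with a CACGTG, shown 5′ to 3′ on the strand of the gene with the motif in capitals. The first 8 belong to genes that were higher and the last pair to genes that were lower.
BYSL, chr6:41921515-41921544, plus strand: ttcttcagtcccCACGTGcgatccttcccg
NOP2, chr12:6568242-6568268, minus strand: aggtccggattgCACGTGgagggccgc
MRTO4, chr1:19251807-19251836, plus strand: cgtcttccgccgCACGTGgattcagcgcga
RRP9, chr3:51941892-51941921, minus strand: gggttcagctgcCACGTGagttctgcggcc
GAR1, chr4:109815781-109815810, plus strand: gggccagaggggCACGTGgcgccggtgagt
LTV1, chr6:143843354-143843383, plus strand: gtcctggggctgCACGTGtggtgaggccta
PES1, chr22:30591880-30591909, minus strand: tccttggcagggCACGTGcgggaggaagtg
WDR43, chr2:28894658-28894687, plus strand: cgcacggacgaaCACGTGgctgcagcgggg
UTP20, chr12:101280083-101280112, plus strand: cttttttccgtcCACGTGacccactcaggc
NOC3L, chr10:94362903-94362932, minus strand: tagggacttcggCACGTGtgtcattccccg

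In these 10 promoters the motif began between 10 bases before the start (UTP20) and position 36, counted from 1 at the start (NOP2, whose window ends with the promoter entry). The 4 other motifs below were searched on both strands in the same windows. GGGCGG was in 79.1% of the 43 promoters and 76.2% of those of tested genes. AAGATGGC was in 6.98% against 6.35%, TATAAA in 4.65% against 8.67%, and TTCNNNGAA, the letters that STAT dimers recognise, in 4.65% against 8.50%. Such matches describe letters in a window and were not tested.

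After 3 h of IFNγ, 17 of the 48 genes were higher and 4 were lower at an adjusted p under 0.05 (edgeR's quasi-likelihood test, Benjamini-Hochberg over all 14820 genes), and 27 were not called. Among all tested genes 9.02% were called higher and 11.0% lower. Over the 48 genes the median log2 fold change came to 0.30, against -0.01 over all tested genes. A positive log2 fold change was seen in 35 of the 48, and in 49.4% of all tested genes. With a further demand that the absolute log2 fold change exceed 1, RRS1, PPAN, BYSL, NIP7, GRWD1 and POLR1C were higher and NOC3L was lower, against 2.88% and 4.40% of all tested genes. The IFNγ and unstimulated libraries did not overlap for 30 of the 48 genes in the higher direction and 9 in the lower, where 31.6% and 30.8% of all tested genes did so. Whichever library was left out, NOP56, BYSL, NOP2, NOP16, RRP1, RRS1, NIP7, GRWD1, MRTO4 and POLR1C stayed called. Without unstimulated replicate 1, GAR1, LTV1, PES1, PPAN, RRP9, UBTF and WDR43 were no longer called, which left 10 higher. Calls were also lost for LTV1, PPAN and WDR43 without IFNγ replicate 1, and for GAR1, PES1, PPAN and WDR43 without IFNγ replicate 2. Without unstimulated replicate 2, UTP20, WDR12 and NOC3L were no longer called, and TAF1D was the 1 gene still lower. Without IFNγ replicate 1, GNL3, HEATR1, NOP58 and WDR75 were also lower, 8 in all.

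**Figure D1:**
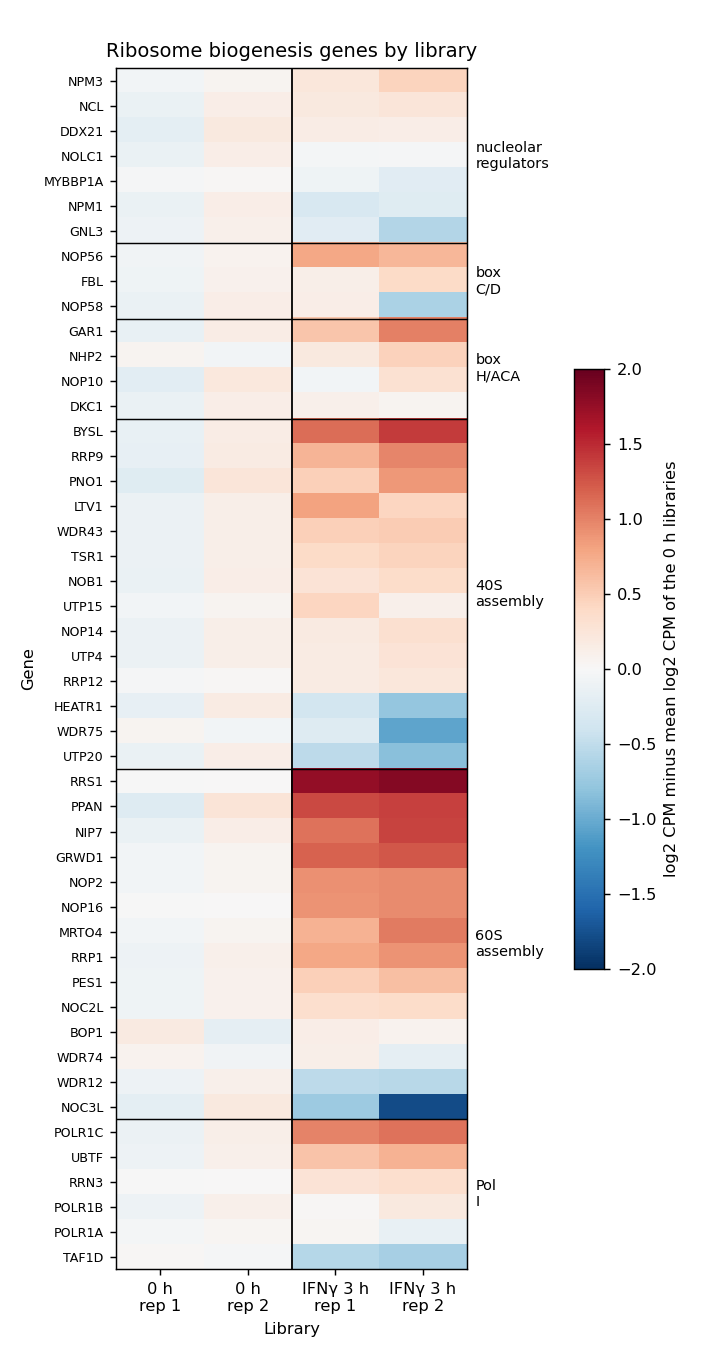
Heat map of the 48 genes (rows, grouped by role) in the 4 libraries (columns), coloured by log2 CPM minus the mean log2 CPM of the 2 unstimulated libraries. The 60S assembly block holds the most red in both IFNγ columns, with NOC3L and WDR12 blue, and IFNγ replicate 2 is bluer than replicate 1 for NOC3L, WDR75 and NOP58.

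The higher genes had a median of 13.3 CPM per kb of transcript at 0 h, against 15.0 over the 48 genes and 7.95 over all tested genes. Per kilobase of transcript, in unstimulated cells, the most abundant were NPM1 at 517 CPM per kb, TAF1D at 197, NCL at 152 and FBL at 108. The least abundant were PPAN at 0.722, BOP1 at 1.57 and UTP15 at 2.81 CPM per kb. Summed over the 48 genes, the level was 3744 and 4341 CPM in unstimulated replicates 1 and 2, and 4376 and 4444 CPM after IFNγ. The sum in unstimulated replicate 2 thus lay close to those after IFNγ. Without NCL, NPM1, DDX21 and TAF1D, which carry much of it, the groups stood further apart. The other 44 genes summed to 1953 and 2229 CPM before and 2547 and 2588 CPM after. Of the genes left out, mean CPM went down for NPM1 (683 to 559) and TAF1D (321 to 210). It went up for NCL (595 to 690) and DDX21 (353 to 384).

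Large subunit assembly held the most calls. Of its 14 factors, 9 were higher (64.3%), 2 were lower (14.3%) and 3 were not called, and the median log2 fold change was 0.86. Over all tested genes 9.02% were higher and 11.0% lower, so the share lower was near that of all tested genes. Summed over the group, the level was 456 and 508 CPM at 0 h and 707 and 747 CPM after IFNγ.

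RRS1, which helps bring 5S rRNA and its proteins into the large subunit, rose most. It stood at 7.59 and 7.71 CPM in the unstimulated libraries and at 25.9 and 27.4 CPM after IFNγ. Both IFNγ libraries were far above both unstimulated ones, a 3.48-fold difference (log2 fold change 1.80 ± 0.17 SE, adjusted p = 0.00128). Its exons overlap another annotated gene on the same strand.

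NIP7, a factor in pre-rRNA processing, was at 33.9 and 40.9 CPM at 0 h and at 78.9 and 94.8 CPM after IFNγ. The lower IFNγ library was well above the higher unstimulated one (log2 fold change 1.22 ± 0.16 SE, adjusted p = 0.0034). GRWD1, a dedicated chaperone of ribosomal protein uL3, went from 28.2 and 30.4 to 66.2 and 69.3 CPM. Its replicates lay close together on each side, with a log2 fold change of 1.21 ± 0.13 SE and an adjusted p of 0.00189. Exons of NIP7 overlap another annotated gene over 873 bases, and those of GRWD1 over 285.

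PPAN, a pre-60S factor, had few counts, at 14 and 14 before and 42 and 31 after IFNγ. This corresponded to 1.36 and 1.96 CPM at 0 h and 4.09 and 4.23 CPM after, and the groups did not overlap (log2 fold change 1.34 ± 0.35 SE, adjusted p = 0.0371). The gene shares exons with the readthrough gene PPAN-P2RY11, and its reads may have been split between them.

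NOP2, a methyltransferase of large subunit rRNA, rose from 59.4 and 64.3 to 117 and 119 CPM, by 0.93 on the log2 scale (adjusted p = 0.00329). The pre-60S factors NOP16, MRTO4 and RRP1 had log2 fold changes of 0.92, 0.88 and 0.83. NOP2 shares most of its exons with an overlapping annotated gene on the same strand, while MRTO4 and RRP1 overlap none.

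The members of the PeBoW complex, which is needed for the 28S rRNA, were called in opposite directions, a difference that was not itself tested. PES1 rose from 74.4 and 83.9 to 110 and 120 CPM (log2 fold change 0.54 ± 0.12 SE, adjusted p = 0.023). WDR12 fell from 72.3 and 83.4 to 54.1 and 53.1 CPM (log2 fold change -0.54 ± 0.13 SE, adjusted p = 0.027). For both genes the 2 groups of libraries did not overlap, and they stood on opposite sides. With a GC and length trend removed neither passed (PES1 0.33, adjusted p = 0.102, and WDR12 -0.03, adjusted p = 0.903), and PES1 was also lost without unstimulated replicate 1 or IFNγ replicate 2, and WDR12 without unstimulated replicate 2. BOP1 was listed at 3.22 to 4.09 CPM in all 4 libraries and was not called, and 85.7% of its transcript matches a second place on the same chromosome exactly, so its level is uncertain.

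NOC3L, of the Noc complexes that accompany the pre-60S particle, was the gene with the largest fall. It stood at 19.4 and 25.5 CPM at 0 h and at 13.4 and 6.41 CPM after IFNγ. The groups did not overlap, but the IFNγ libraries differed from each other by more than 2-fold (log2 fold change -1.14 ± 0.32 SE, adjusted p = 0.0456). For NOC2L, another Noc protein, the log2 fold change was 0.35 (adjusted p = 0.0808). WDR74 stood at 21.4 and 19.3 CPM before and 22.1 and 18.0 CPM after, with overlapping groups.

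**Figure D2:**
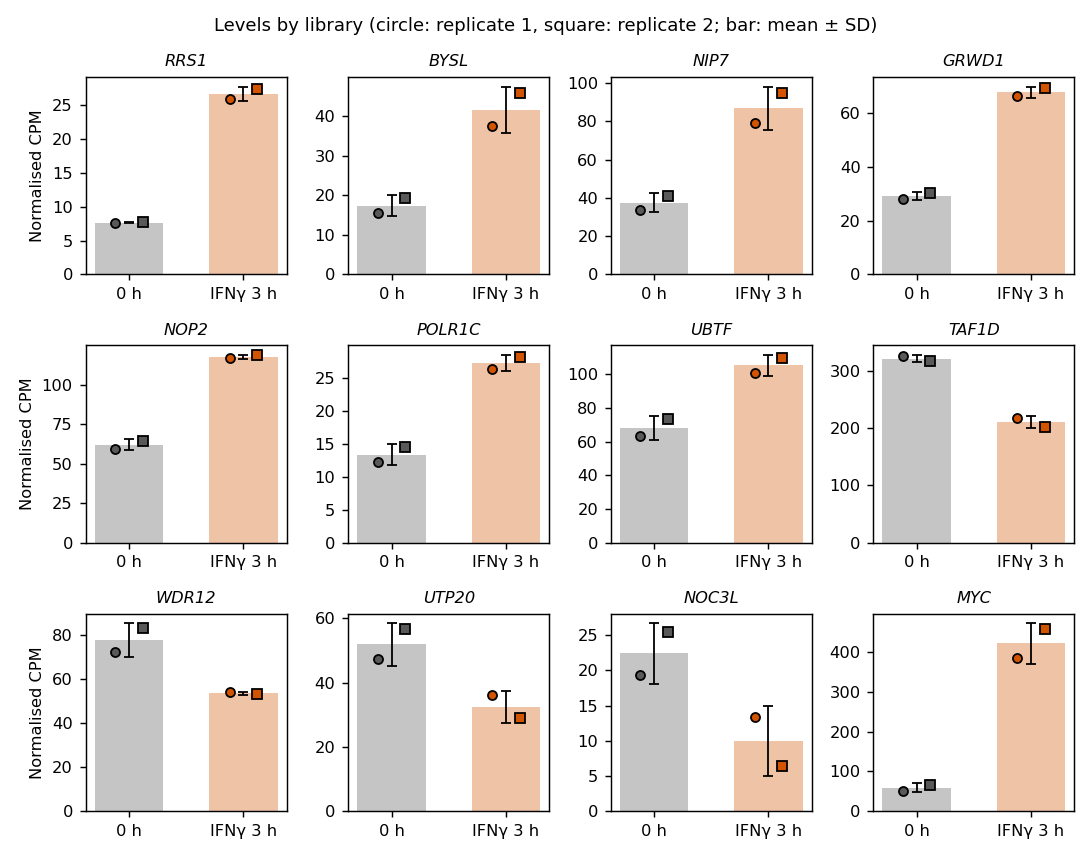
Normalised CPM of 12 genes, 11 of the ribosome genes and MYC, at 0 h and after 3 h of IFNγ, with bars for the mean, error bars for the SD of 2 libraries and a point for each library (vertical axes start at 0). RRS1, BYSL, NIP7, GRWD1, NOP2, POLR1C, UBTF and MYC sit higher in both IFNγ libraries, and TAF1D, WDR12, UTP20 and NOC3L sit lower.

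Small subunit assembly held fewer calls, and the difference between the groups was not tested. With a GC and length trend removed the 2 groups were closer, with 6 small subunit and 7 large subunit factors higher. In that fit 9.95% of all tested genes were higher. In edgeR's main comparison BYSL, RRP9, LTV1 and WDR43 of 14 factors were higher (28.6%), UTP20 was lower (7.14%) and 9 were not called. There 9.02% of all tested genes were higher and 11.0% lower. The median log2 fold change of the 14 factors was 0.30. BYSL, a factor of late pre-40S particles, was at 15.6 and 19.2 CPM at 0 h and at 37.4 and 45.7 CPM after IFNγ. The groups were well separated (log2 fold change 1.26 ± 0.18 SE, adjusted p = 0.00444). RRP9, a protein of the U3 small nucleolar ribonucleoprotein, went from 15.97 and 19.9 to 28.4 and 35.2 CPM (log2 fold change 0.83 ± 0.19 SE, adjusted p = 0.0208).

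LTV1, which accompanies the pre-40S particle to the cytoplasm, had a log2 fold change of 0.64, and WDR43 of 0.49. The 3 small subunit factors with a negative log2 fold change were UTP20, HEATR1 and WDR75. UTP20, a scaffold of the small subunit processome, fell from 47.2 and 56.6 to 36.0 and 28.9 CPM (log2 fold change -0.67 ± 0.17 SE, adjusted p = 0.0305). Its groups did not overlap.

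HEATR1 stood at 59.9 and 74.4 CPM at 0 h and at 51.6 and 39.2 CPM after IFNγ (adjusted p = 0.0659). WDR75, like WDR43 a protein of the complex that joins Pol I transcription to processing, stood at 48.7 and 44.7 CPM before and 39.1 and 22.4 CPM after (adjusted p = 0.13). Neither passed the test, and in both the lower value was that of IFNγ replicate 2. The last endonuclease of 18S rRNA maturation, NOB1, and its partner PNO1 had log2 fold changes of 0.32 and 0.67 (adjusted p = 0.146 and 0.062).

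Of the 3 box C/D proteins, which guide 2′-O-methylation, NOP56 alone was called (33.3%, against 9.02% of all tested genes called higher). It stood at 75.2 and 82.2 CPM at 0 h and at 134 and 125 CPM after IFNγ, and both IFNγ libraries were above both others (log2 fold change 0.72 ± 0.12 SE, adjusted p = 0.00707). The methyltransferase FBL stood at 115 and 129 CPM before and 132 and 159 CPM after, a difference that did not pass (log2 fold change 0.25, adjusted p = 0.233). NOP58 stood at 74.4 and 89.8 CPM before and at 89.9 and 52.7 CPM after, so its IFNγ libraries spanned the unstimulated ones.

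Of the 4 box H/ACA proteins, which guide pseudouridylation, GAR1 alone was called (25%, against 9.02% of all tested genes called higher). It stood at 12.1 and 15.0 CPM before and 19.8 and 27.2 CPM after IFNγ. Its groups did not overlap (log2 fold change 0.80 ± 0.21 SE, adjusted p = 0.0386). The pseudouridine synthase DKC1 stood at 65.8 and 79.6 CPM before and 78.0 and 75.0 CPM after (log2 fold change 0.08, adjusted p = 0.725). NHP2 and NOP10 were not called, with log2 fold changes of 0.33 and 0.13.

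None of the 7 nucleolar regulators was called by edgeR in the comparison above or by DESeq2, and 1 had an unadjusted p under 0.05. DDX21 was higher with a GC and length trend removed (adjusted p = 0.0343), and GNL3 was lower without IFNγ replicate 1. The median log2 fold change was -0.04. Nucleolin (NCL), an abundant RNA-binding protein of the nucleolus, stood at 542 and 648 CPM at 0 h and at 679 and 700 CPM after IFNγ (log2 fold change 0.21, adjusted p = 0.259). Nucleophosmin (NPM1) stood at 619 and 747 CPM before and 545 and 572 CPM after (log2 fold change -0.29, adjusted p = 0.147). The groups did not overlap in either gene, but the gap between them was smaller than the difference between the unstimulated libraries. NPM1 has a near-identical copy elsewhere in the genome over 1299 of 1320 bases.

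GNL3, the gene of this group with the lowest adjusted p (0.133), stood at 52.7 and 60.7 CPM before and 48.3 and 37.5 CPM after. Part of its transcript, 295 of 1933 bases, has a near-identical copy elsewhere in the genome. The helicase DDX21 stood at 304 and 402 CPM before and 387 and 381 CPM after, and NPM3 at 13.8 and 14.9 before and 16.8 and 19.5 CPM after. DDX21 overlapped between the groups, and NPM3 did not.

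In the Pol I group of 6 genes, 2 were higher (33.3%), 1 was lower (16.7%) and 3 were not called. The shares over all tested genes were 9.02% higher and 11.0% lower, and the lower share here rests on 1 gene. POLR1C, a subunit that Pol I shares with Pol III, rose from 12.3 and 14.4 to 26.4 and 28.1 CPM (log2 fold change 1.03 ± 0.17 SE, adjusted p = 0.00642). UBTF, which keeps rRNA genes in an open state, rose from 63.1 and 73.3 to 101 and 110 CPM (log2 fold change 0.63 ± 0.13 SE, adjusted p = 0.0156). For both genes the lower IFNγ library was above the higher unstimulated one. POLR1C overlaps 4 other genes, all on the opposite strand. UBTF overlaps 2 other genes, by up to 248 bases.

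TAF1D, a subunit of the promoter selectivity factor SL1, fell from 326 and 316 to 217 and 202 CPM (log2 fold change -0.61 ± 0.11 SE, adjusted p = 0.00902). The replicates lay close to each other on both sides. Its annotated exons hold several small nucleolar RNA genes and overlap 3 other genes, and how reads there were assigned is not known.

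The catalytic subunits showed no call. POLR1A, the largest, stood at 111 and 118 CPM before and at 117 and 103 CPM after IFNγ (log2 fold change -0.05, adjusted p = 0.795). POLR1B stood at 49.7 and 56.9 CPM before and 54.3 and 61.0 CPM after (log2 fold change 0.11, adjusted p = 0.596). In both genes the groups overlapped. RRN3, which carries growth signals to Pol I, stood at 32.5 and 32.9 CPM before and 39.5 and 41.5 CPM after, without overlap (log2 fold change 0.31, adjusted p = 0.146). Part of its transcript, 581 of 3706 bases, has a near-identical copy elsewhere on the same chromosome.

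**Figure D3:**
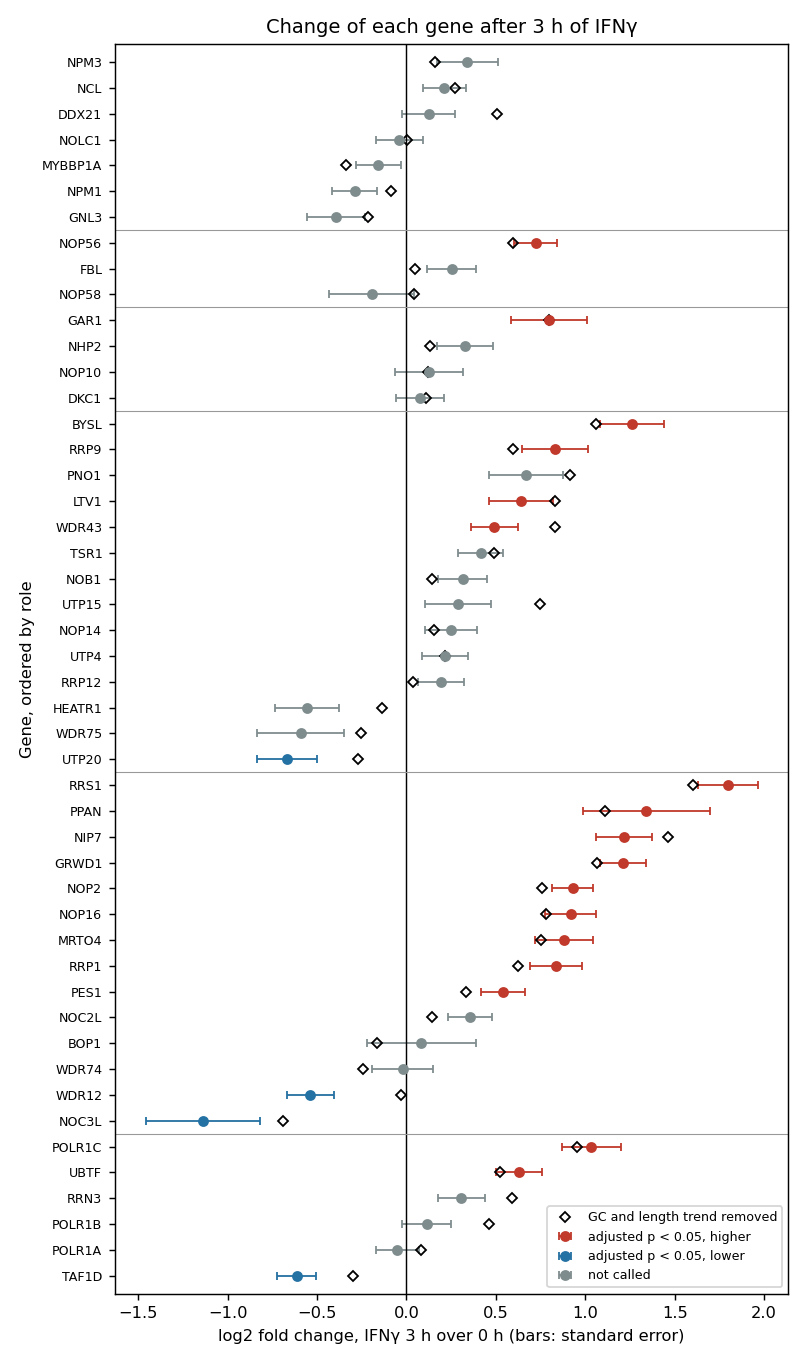
Log2 fold change of each of the 48 genes, IFNγ 3 h over 0 h, ordered by role (filled points with standard error bars, coloured by call) with the value after removal of a GC and length trend (open diamonds). Red points (higher) gather in the 60S block, and the diamonds of the 4 blue points (lower) lie nearer to 0 than the points.

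Change and base composition moved together in these libraries. Across the tested genes with a known GC content (14518 genes, not independent of each other), log2 fold change and transcript GC content had a Spearman rho of 0.44, and over the 48 genes it was also 0.44. The 17 higher genes had a median GC of 54.7% (40.02% to 61.9%), and the 4 lower ones 39.1% (37.7% to 42.3%). With the trend of GC and length removed from each library, 19 genes were higher and 0 were lower by edgeR, with 3 negative values at an unadjusted p under 0.05. TAF1D (adjusted p = 0.126), UTP20 (0.265), WDR12 (0.903) and NOC3L (0.148) no longer passed. The share of all tested genes called was 9.95% higher and 6.12% lower in that fit.

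Of the 17 higher genes, 14 stayed higher with the trend removed. PES1, PPAN and RRP9 no longer passed, and DDX21, PNO1, RRN3, TSR1 and UTP15 now did. NIP7, at the low end of GC among the higher genes, had a larger log2 fold change with the trend removed (1.46) than without (1.22). Whether the trend reflects the libraries or the cells was not tested.

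**Figure D4:**
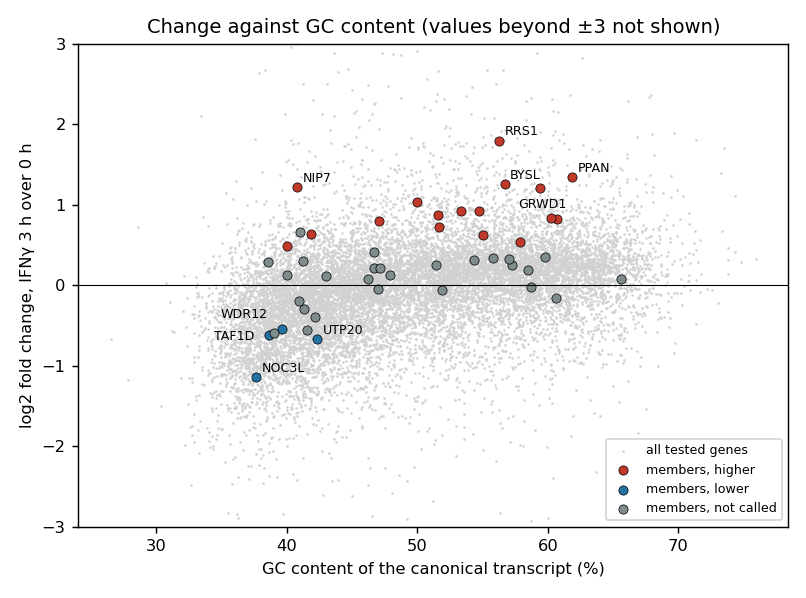
Log2 fold change (vertical axis) against GC content of the canonical transcript in percent (horizontal axis), for all tested genes (grey) and the 48 genes coloured by call. The 4 lower genes lie between 37.7% and 42.3% GC, and the higher genes spread from 40.02% to 61.9%.

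Other genes of the same pathway were read from lists of factors that were not among the 48. Of 44 other small subunit factors tested, 7 were higher (15.9%) and 1 lower (2.27%), with a median log2 fold change of 0.15. Among all tested genes 9.02% were higher and 11.0% lower. Whether these shares differ was not tested. The largest changes among the 44 factors were UTP3, from 23.4 and 21.4 to 54.4 and 47.2 CPM, and DDX10, from 68.8 and 82.9 to 33.9 and 26.1 CPM. In both, the groups stood well apart (log2 fold changes 1.18 and -1.33). IMP3, a U3 protein, was also higher, by 0.72.

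Of 48 other large subunit factors tested, 11 were higher (22.9%) and 3 lower (6.25%), with a median of 0.10. The shares of all tested genes were 9.02% and 11.0%. URB2 rose from 11.3 and 12.7 to 37.3 and 41.8 CPM (log2 fold change 1.72, adjusted p = 0.00131). ZNF622, which acts on the large subunit in the cytoplasm, was higher by 1.33. The export adaptor NMD3 and the giant ATPase MDN1 were lower, with log2 fold changes of -1.09 and -1.04. With the trend removed these were -0.65 and -0.71, and NMD3 no longer passed (adjusted p = 0.0564), while MDN1 was lost without unstimulated replicate 1. Of 10 other Pol I genes, POLR1G alone was called (10% higher, near the 9.02% of all tested genes), and 6 had a negative value. The median log2 fold change was -0.17. POLR1G had few counts, at 17 and 10 before and 53 and 27 after IFNγ. This was 1.66 and 1.40 CPM before and 5.16 and 3.68 CPM after.

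None of the 78 ribosomal protein genes tested was called by edgeR in the comparison above or by DESeq2, and 7 had an unadjusted p under 0.05. Their median log2 fold change was 0.18, with a range from -0.30 to 0.35. With a library left out, 2 were higher without IFNγ replicate 1 and 1 was lower without IFNγ replicate 2. Of the 78 ribosomal protein genes, 66 had a positive and 12 a negative value, where 49.4% of all tested genes had a positive one. Most of them thus rose slightly, with no call. Whether they differ from the assembly factors was not tested.

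**Figure D5:**
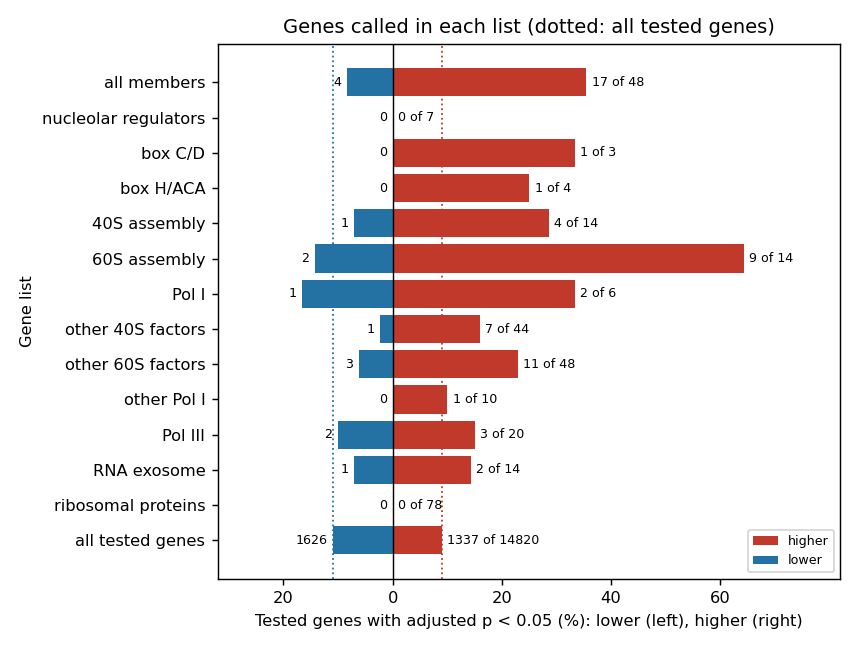
Share of tested genes called higher (red, right) and lower (blue, left) in each list, in percent, with the numbers called and tested printed beside the bars and dotted lines for all tested genes. Among the lists drawn, which leave out markers, IFNγ targets and the MYC network, the 60S assembly bar is the longest, at 9 of 14 genes, and the ribosomal protein row is empty at 0 of 78.

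MYC was itself higher, from 50.2 and 66.0 CPM at 0 h to 387 and 459 CPM after IFNγ (log2 fold change 2.87 ± 0.17 SE, adjusted p = 0.000287). Both IFNγ libraries were far above the unstimulated ones. Of 13 genes of the MYC network tested, 1 was higher (MYC, 7.69%), 3 were lower (23.1%) and 9 were not called. Among all tested genes 9.02% were higher and 11.0% lower. The largest falls in the network were those of MXI1 and MXD1, partners of MAX that oppose MYC. MXI1 went from 71.8 and 73.6 to 19.5 and 21.6 CPM, and MXD1 from 104 and 94.99 to 27.1 and 29.6 CPM. Whether these changes bear on those of the ribosome genes was not tested.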

How the data were processed

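RNA was extracted with the mirVana kit and libraries were made with the TruSeq RNA kit, per the labels. For each of the 4 libraries the deposited values are whole read counts by Ensembl gene, neither pooled nor normalised. The submitters' processing notes name HISAT 0.5.1 and HTSeq 0.6.1p1. The genome build, annotation and use of strand are not given in the sources used here, so overlapping genes are uncertain. Symbols were paired with 96.5% of the identifiers. Coordinates, GC content and length came from GENCODE 44 on GRCh37 (Ensembl canonical transcript), which may not be the annotation used for counting.

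Counts were tested with edgeR 4.0.16 in R 4.3.3 (quasi-likelihood test, TMM scaling, default filter, no block), with Benjamini-Hochberg adjustment over all tested genes and a threshold of 0.05. Standard errors were the log2 fold change over the square root of F. The self-test on simulated counts recovered the direction of every called change. When gene-specific dispersions were simulated, the share of false calls exceeded the nominal rate for each fit simulated, most for the replicate block, and with dispersions smoothed over expression it did not. The smoothed simulation was added after the first had been seen. The canonical transcript replaced the longest one as the source of GC and length after values with the longest had been seen, and both are reported.

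Before TMM scaling, 1 CPM of a library's whole total was 7.17 to 10.4 counts. With 2 libraries per group, the number of libraries limits the precision. Exact permutation of 2 against 2 libraries cannot pass the threshold and was not used. Near-identical copies were sought with minimap2 2.31 (at least 98% identity over at least 200 bases). The GC and length trend was a loess fit per library with a span of 0.5. Alternatives were other scalings, DESeq2 1.42.0, other filters and thresholds, the replicate block, the GC trend, and each library left out in turn. Values by library are given for the strongest called genes of each role, all Pol I genes, NCL, NPM1, FBL, DKC1, genes moving against their group, and, from the other lists, MYC and the strongest called genes. NPM3, DDX21, GRWD1, NOP2 and PES1 were added after their values were seen. The genes, lists and tests were chosen with earlier results of these data known. Listed genes with no row (AATF, DDX52, ZNHIT3, PECAM1) were not analysed here. A gene that the rule for named genes covers is not reported here.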

Additional observations from a re-analysis of the deposited data

How the results depend on the processing

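The median log2 fold change stayed positive under every alternative, but the counts did not all hold. Of the 17 higher genes, 10 (NOP56, BYSL, NOP2, NOP16, RRP1, RRS1, NIP7, GRWD1, MRTO4 and POLR1C) were higher under all 14 alternative fits. The others were lost under at least 1. The count of higher genes ranged from 10 to 19 when 1 library was left out, with 10 without unstimulated replicate 1 (GAR1, LTV1, PES1, PPAN, RRP9, UBTF and WDR43 lost). The share of all tested genes called higher was 4.75% in that fit and up to 7.58% in the others. The count of lower genes ranged from 1 to 8, with 1 (TAF1D) without unstimulated replicate 2 and 8 without IFNγ replicate 1, where the shares of all tested genes were 9.72% and 12.4%. A group left with 1 library was assumed to vary like the other. The median over the 48 genes ranged from 0.19 to 0.36 over the same fits. It was 0.34 with upper quartile scaling, 0.25 with library size only, 0.24 with the GC and length trend removed and 0.25 with that trend removed and the replicate block. An adjusted p under 0.01 left 9 higher and 1 lower, and the share of all tested genes at that threshold is not given here. A log2 fold change beyond 1 left 6 and 1, against 2.88% and 4.40% of all tested genes. The lower genes numbered 0 with the trend of the canonical or of the longest transcript removed, and 2 with the trend removed and the block. In these fits, in that order, 6.12%, 6.78% and 13.6% of all tested genes were lower. A subset chosen after seeing the data was the 20 genes with no near-identical copy and no overlapping gene, small RNA genes aside. It held 7 higher and 2 lower, where 9.02% and 11.0% of all tested genes were called, and had a median of 0.21.

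Same-numbered libraries share only a number in the labels. Their deviations from the group means correlated across genes (Pearson r = 0.415), and with the replicate block 23 genes were higher and 7 lower, where 17.5% and 19.5% of all tested genes were called. With the block NCL was called higher (adjusted p = 0.0404) and NPM1 lower (0.0149), and of the 78 ribosomal protein genes 34 were called higher and 2 lower. DESeq2 gave 16 and 5, against 8.97% and 12.2% of the genes it tested.

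For 9 genes, none of them among the called ones, the sign changed under some alternative. With the trend removed, NOLC1 was at 0.0048 (0.011 with the block), NOP58 at 0.041 (0.016 with the block, 0.016 with the longest transcript), BOP1 at -0.16 (-0.17 with the block, -0.17 with the longest transcript) and POLR1A at 0.083 (0.093 with the block, 0.066 with the longest transcript). NPM1 was at 0.11 with the longest transcript. With upper quartile scaling NOLC1 was at 0.0041 and WDR74 at 0.018. With 1 library left out, the log2 fold change ranged from -0.17 to 0.12 for NOLC1, -0.066 to 0.35 for DDX21, -0.65 to 0.11 for NOP58, -0.058 to 0.23 for DKC1, -0.079 to 0.36 for NOP10, -0.051 to 0.28 for BOP1, -0.19 to 0.091 for WDR74 and -0.15 to 0.013 for POLR1A. The cause of these changes was not tested.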

Other observations

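Genes of RNA polymerase III, which makes 5S rRNA and transfer RNAs, were called at shares near those of all tested genes. Of 20 tested, 3 were higher (15%) and 2 lower (10%), against 9.02% and 11.0%, with a median log2 fold change of 0.01. GTF3C5, a subunit of TFIIIC, rose from 65.7 and 70.1 to 103 and 104 CPM, and the groups did not overlap (log2 fold change 0.61, adjusted p = 0.0113). BDP1 fell from 68.9 and 68.2 to 42.4 and 18.0 CPM, and its IFNγ libraries differed by more than 2-fold (log2 fold change -1.16, adjusted p = 0.0464). GTF3C3 was lower, at -0.79. With the GC and length trend removed, neither of the lower genes passed (adjusted p = 0.182 and 0.0885).

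The RNA exosome trims precursor rRNA from its 3′ end. Of 14 exosome genes and cofactors tested, EXOSC6 and EXOSC4 were higher (14.3%) and MTREX was lower (7.14%), again near the 9.02% and 11.0% of all tested genes. EXOSC6, of the exosome ring, went from 12.3 and 12.5 to 27.0 and 36.0 CPM (log2 fold change 1.34, adjusted p = 0.00444). The helicase MTREX went from 93.8 and 102 to 61.5 and 48.2 CPM (log2 fold change -0.83, adjusted p = 0.00964). In both the groups stood apart. With the trend removed EXOSC6 still passed (adjusted p = 0.00375), and EXOSC4 and MTREX did not (0.106 and 0.0686).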
